A study of Mus musculus with 9 samples.

Results

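The genes described here are 38 named genes of the lysosome, out of 21938 protein-coding genes, followed through 9 peak lists from mouse fat. They were taken by name and by no measured value. They comprise 8 V1 subunits, 6 V0 subunits and 2 accessory subunits of the vacuolar proton pump (V-ATPase), 13 lysosomal hydrolases and their activators, 6 membrane and lipid transport proteins, and the 3 regulators Tfeb, Tfe3 and Mitf. For each gene, the peaks within 1 kb of any transcription start site (TSS) and those in the gene body with 20 kb on each side were collected. Each peak carried its −log10 q and its rank percentile within its own list, where 100 is the strongest peak. All 38 genes were found in the annotation.

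Lysosomes are acidic organelles that degrade proteins, lipids, glycans and the contents of autophagosomes. The V-ATPase acidifies them: the V1 sector, in the cytosol, splits ATP, and the V0 sector, in the membrane, passes the protons. TFEB, TFE3 and MITF are related transcription factors of the MiT/TFE family that bind an E-box with the core TCACGTGA and are known to switch on pump, hydrolase and autophagy genes together. In fat, autophagy is known for removing mitochondria when beige adipocytes whiten. Ets1 belongs to the ETS family, whose members bind DNA around a GGAA core.

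Ets1 was profiled in mature fat cells isolated from inguinal white adipose tissue (iWAT), the subcutaneous pad of the groin, from wild-type C57 mice kept at room temperature (RT) or cold stressed for 7 days (CS), and in beige adipocytes made in culture. The cultured cells came from the stromal vascular fraction of mice aged 3 to 4 weeks and were differentiated over 6 days. H3K27ac, an acetyl mark of active promoters and enhancers, was profiled in iWAT adipocytes of 4 genotypes. EA+/+ mice carried a homozygous Ets1 knock-in switched on by adipoq-cre, and EC+/+ mice carried the same knock-in without Cre. EAKO mice carried floxed Ets1 with adipoq-cre, and Flox mice carried floxed Ets1 without Cre. Open chromatin was mapped by ATAC in Flox and EAKO adipocytes. The adipoq promoter limits Cre to fat cells, so other cells of the pad keep the unrecombined alleles. The mice were male, on a C57BL/6J background, and those that gave mature adipocytes were 8 to 10 weeks old. The labels call the Ets1 and H3K27ac assays ChIP, while the study's methods describe CUT&Tag, in which an antibody tethers a transposase that tags the DNA close by. There was 1 library per group, so no difference between groups could be tested, and every comparison below is a description of those libraries. A legend in the study's supplement gives an n of 1 for each group of mature adipocytes. Its reporting summary instead says that each ATAC group had biological replicates, but only 1 ATAC library per genotype was available here.

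The lists ranged from 4056 peaks for Ets1 in RT to 88977 for ATAC in Flox, and a longer list reaches more genes. Read totals were not used here. Of 10 adipocyte marker genes, 5 had an Ets1 promoter peak in CS, 7 in beige cells and 0 in RT, and between 6 and 8 had a promoter peak in the other lists. Of 15 macrophage markers, whose cells are rich in lysosomes, 0 had an Ets1 promoter peak in RT or CS, 2 had one in beige cells, and 4 or 5 had a promoter peak in each H3K27ac and ATAC list. Of 9 progenitor markers, 9 had an H3K27ac promoter peak in Flox, 8 in EAKO, 5 in EC+/+ and 3 in EA+/+. ATAC gave 8 in Flox and 8 in EAKO. Of 8 endothelial markers, 6 had an H3K27ac promoter peak in Flox, 6 in EAKO, 3 in EC+/+ and 4 in EA+/+. ATAC gave 6 in Flox and 5 in EAKO. Ets1 promoter peaks stood at 1 progenitor and 2 endothelial markers in CS, and at 4 and 0 in beige cells. The part that other cells took in the lysosomal peaks was not tested.

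The promoters of 6 genes held the palindrome TCACGTGA that MiT/TFE factors read, and they are shown because these genes span the pump, the hydrolases and the channel Mcoln1. The sequences are RefSeq promoters of GRCm38.p6, on the strand of the gene, with TCACGTGA in capitals. Sequence was held to a few bases around the motif where the flanks are transcribed.

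Atp6v1a (chr16:44139349-44139426, minus strand): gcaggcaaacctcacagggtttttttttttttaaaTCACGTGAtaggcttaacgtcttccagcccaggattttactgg
Atp6v0d1 (chr8:105566026-105566103, minus strand): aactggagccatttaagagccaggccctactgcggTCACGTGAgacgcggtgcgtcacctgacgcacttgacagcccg
Atp6v0e (chr17:26676387-26676416, plus strand): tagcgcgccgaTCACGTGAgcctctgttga
Ctsa (chr2:164833757-164833786, plus strand): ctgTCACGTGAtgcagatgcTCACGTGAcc
Ctsd (chr7:142387908-142387937, minus strand): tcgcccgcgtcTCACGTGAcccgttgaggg
Mcoln1 (chr8:3500462-3500491, plus strand): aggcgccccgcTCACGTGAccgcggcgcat

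In windows from 250 bases before to 50 after the RefSeq start, 31 of the 38 genes had a sequence to search. TCACGTGA lay in 6 of these 31 (19.4%), against 1.41% of 17492 protein-coding genes with a window. Ctsa, which encodes the protective protein cathepsin A, held it at 2 places, starting at -13 and 5 bp from the start. The shorter CACGTG, which includes every TCACGTGA, lay in 11 of the 31 (35.5%) against 8.91% of genes, and Lamp1, which encodes an abundant protein of the lysosomal membrane, held 4 copies. The 7 genes without a window were Atp6v1b2, Atp6v1c1, Atp6v1g1, Atp6v1h, Atp6v0a2, Ctsb and Npc1.

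The ETS motif CCGGAAG, read on either strand, lay in 6 of the 31 promoters (19.4%: Atp6v1d, Atp6v1e1, Atp6v0b, Atp6v0e, Glb1 and Npc2), against 12.9% of genes. Atp6v0e alone held both CCGGAAG and TCACGTGA. Closer to Ets1 itself, CCGGAAG lay within 50 bp of the summit of the strongest promoter peak in 1 of 18 genes in CS (5.56%). In beige cells it did so in 2 of 36 (5.56%). Its share over all promoter summits was 5.66% in CS and 8.81% in beige cells. The shorter CCGGAA lay as close to the summit in 1 of 18 genes in CS and 5 of 36 in beige cells (13.9%). Over all promoter summits the share was 9.66% in CS and 13.5% in beige cells. Those 6 sites are shown with CCGGAA, or its reverse TTCCGG, in capitals, on the strand of the gene, from GRCm38.p6. All 6 belong to subunits of the pump, a pattern that was not tested. The first is from CS and the others from beige cells.

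Atp6v0e (chr17:26676408-26676437, plus strand): ctctgttgacacTTCCGGgtgggacgagag
Atp6v1d (chr12:78861602-78861631, minus strand): gcccaacaggaaCCGGAAgtgggaaccggt
Atp6v1e1 (chr6:120822731-120822760, minus strand): ttggtcaccaagCCGGAACCGGAAgcgggg
Atp6v0a1 (chr11:101009285-101009360, plus strand): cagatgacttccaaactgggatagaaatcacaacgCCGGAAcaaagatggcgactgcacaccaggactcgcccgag
Atp6v0a2 (chr5:124629003-124629078, plus strand): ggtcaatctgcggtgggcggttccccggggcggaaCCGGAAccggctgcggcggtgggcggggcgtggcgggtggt
Atp6v0d1 (chr8:105566068-105566143, minus strand): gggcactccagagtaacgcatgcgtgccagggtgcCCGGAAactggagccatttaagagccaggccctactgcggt

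The highest ranked Ets1 promoter peak of these genes in beige cells, at Tfe3, had no CCGGAA within 50 bp of its summit, whose base is the capital in the next sequence.

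Tfe3 (chrX:7762729-7762758, plus strand): gtcgttcggggttagGttggggggtgtcgg

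These matches describe the letters in the windows searched. They do not show where Ets1 or an MiT/TFE factor sat.

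Ets1 peaks stood at 2 of the 38 promoters in RT, at 18 after cold stress and at 36 in the cultured beige cells. Over all protein-coding genes the shares with an Ets1 promoter peak were 4.06%, 32.7% and 46.4% in the same order. The sets were nested: no gene had a peak in RT without one in CS, or in CS without one in beige cells. Atp6v1d and Tfeb had a peak in all of them. Another 16 had it in CS and beige cells: Atp6v1a, Atp6v1b2, Atp6v1e1, Atp6v1g1, Atp6v0a2, Atp6v0c, Atp6v0d1, Atp6v0e, Ctsb, Ctsd, Lipa, Glb1, Psap, Npc1, Npc2 and Tfe3. A further 18 had it in beige cells alone, and Atp6v0b and Gaa, the acid glucosidase that degrades glycogen, had none.

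**Figure D1:**
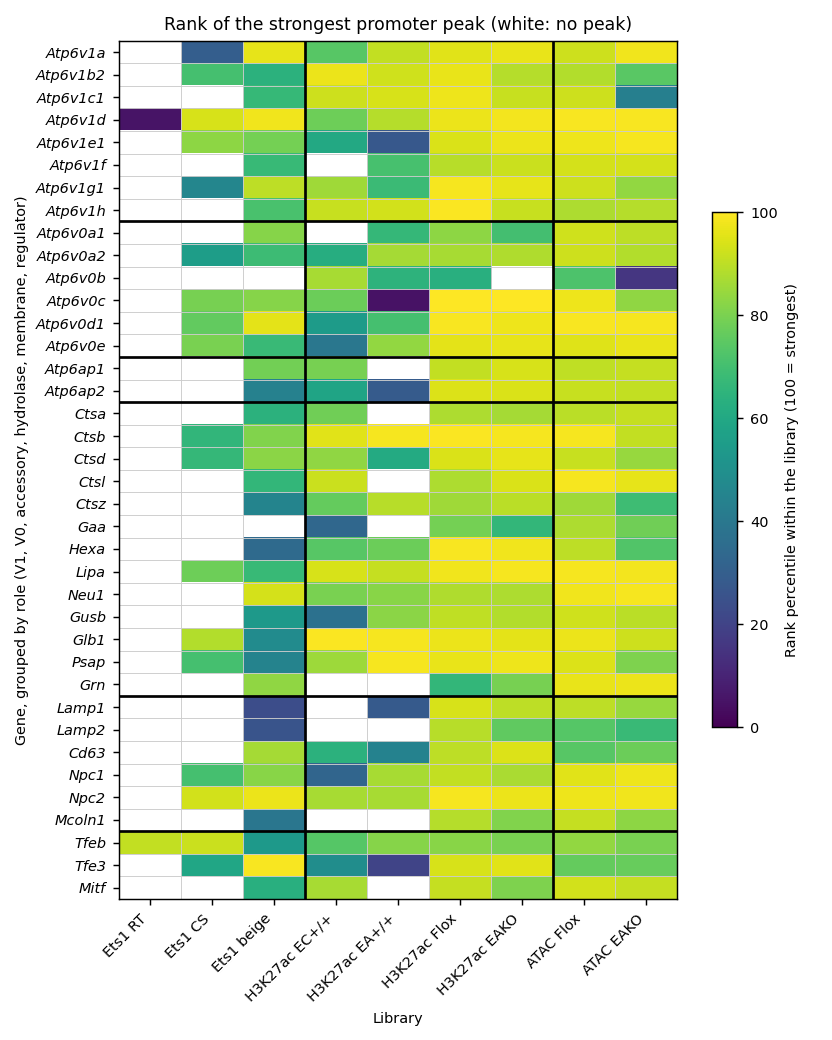
Rank percentile of the strongest promoter peak (colour, 100 is the strongest of the list) for the 38 genes (rows, in groups by role) in the 9 libraries (columns), with white where there was no promoter peak. The Ets1 columns fill from 2 genes in RT to 18 in CS and 36 in beige cells, and the Flox and EAKO columns are filled but for Atp6v0b in H3K27ac of EAKO.

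Between RT and CS, the question was where Ets1 sat after a week of cold. The 16 genes with a peak in CS alone compare with 29.1% of all genes, and the 0 genes with one in RT alone with 0.428%. By role, 5 of the 8 V1 subunits and 4 of the 6 V0 subunits had an Ets1 promoter peak in CS. So did 5 of the 13 hydrolase genes, 2 of the 6 membrane and transport genes, 2 of the 3 regulators and 0 of the 2 accessory subunits. The RT list is far shorter. With the 4056 best peaks of each list, 9 of the 38 genes had a peak in CS (23.7%) and 2 in RT, against 15.9% and 4.06% of all genes.

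Most of these CS peaks were of middling strength, with a median rank of 73.3 over the 18 genes against 71.2 over all genes with one. The highest were Atp6v1d, which encodes the V1 subunit D of the pump's central stalk, at −log10 q 12.4 (rank 94.0), Npc2, the soluble cholesterol carrier of the lysosome, at 11.8 (93.3), and Tfeb at 10.6 (91.9). Glb1, the acid beta-galactosidase, followed at 9.13 (88.5) and Atp6v1e1, in the peripheral stalk, at 7.32 (83.1). The lowest was Atp6v1a, the catalytic subunit, at 2.79 (29.8). The other lysosomal genes, 84 in a separate list, had 39 Ets1 promoter peaks in CS and 3 in RT. Their highest in CS were Gm2a at 18.9 and Lamtor2 at 18.8, both above every one of the 38.

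The peaks of the 2 genes found in RT lay far apart in strength. At Atp6v1d (chr12:78840725-78861638) the RT peak was near the bottom of its list at −log10 q 1.65 (rank 5.19), while it ranked 94.0 in CS and 97.7 in beige cells. Its window is also that of Eif2s1, a translation initiation factor gene on the other strand. Tfeb ranked high in both adipocyte lists, 90.9 at −log10 q 8.53 in RT and 91.9 at 10.6 in CS, and lower in beige cells, 54.3 at 7.46.

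The beige cells and the cold-stressed adipocytes differ in age, culture and preparation as well as in temperature, and these cannot be told apart. Of the 38 genes, 18 had an Ets1 promoter peak in beige cells alone, against 17.1% of all genes, and 0 in CS alone, against 3.39%. The 18 were Atp6v1c1, Atp6v1f, Atp6v1h, Atp6v0a1, Atp6ap1, Atp6ap2, Ctsa, Ctsl, Ctsz, Hexa, Neu1, Gusb, Grn, Lamp1, Lamp2, Cd63, Mcoln1 and Mitf. With the 14858 best peaks of each list, 28 of the genes had a peak in beige cells (73.7%), against 35.1% of all genes, and 18 in CS (47.4%), against 32.7%. Glb1 and Psap then had it in CS alone, as did 1644 of all genes.

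The strongest beige peak stood at Tfe3, at −log10 q 106, with a rank of 98.8 there and 59.3 in CS. Next came Atp6v1d at 76.6 (97.7), Npc2 at 64.2 (96.9), Atp6v1a at 56.6 (96.2) and Atp6v0d1, which links the V1 stalk to the membrane ring, at 53.1 (95.8). Neu1, the lysosomal sialidase, was the highest of those without a CS peak, at 40.6 (93.5). Among the 18 genes with a peak in both lists, 3 ranked over 20 points higher in beige cells (26.9% of all genes with both) and 3 over 20 points lower (9.98%). Those higher were Atp6v1a by 66.3 points, Atp6v1g1 by 44.4 and Tfe3 by 39.5. The ranks that were lower in beige cells were those of Glb1 (88.5 in CS, 48.2 in beige), Tfeb (91.9 and 54.3) and Psap (70.3 and 44.8), which encodes the precursor of the saposins. For Atp6v1a the strongest peaks were not at the same site. The CS summit lay at -16 bp from its nearest TSS. The strongest beige summit lay at -961 bp from a different TSS, with a second beige peak of −log10 q 41.0 at -5 bp from that TSS. Neither of these beige peaks overlapped a CS peak, but another beige promoter peak of the gene did. Naa50 shares the window.

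Because all 38 promoters had an ATAC peak in Flox adipocytes, genes with an open promoter make the closer background. Of 14858 protein-coding genes with a Flox ATAC promoter peak, 47.4% had an Ets1 peak in CS, and 18 of the 38 is also 47.4%. In RT the shares were 5.80% of the open genes and 5.26% of the 38, and in beige cells 68.1% and 94.7%. Of 78 other lysosomal genes with open promoters, 50% had an Ets1 peak in CS and 71.8% in beige cells. Limiting all genes further to those with a Flox H3K27ac promoter peak gave 74.2% in beige cells. The excess in beige cells was a matter of presence: 36 of 38 had a peak, yet their median rank was 68.2 against 75.8 for all genes with one.

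**Figure D2:**
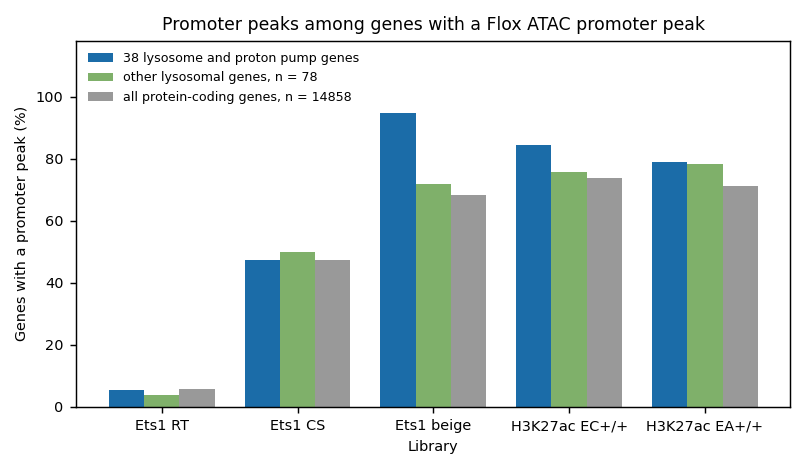
Share of genes with a promoter peak (vertical axis, percent) in the Ets1 lists and the H3K27ac lists of EC+/+ and EA+/+ (horizontal axis), among genes with a Flox ATAC promoter peak. The bars of the 38 genes and of all 14858 genes are level in CS at 47.4%, and stand at 94.7% and 68.1% in beige cells.

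The Ets1 peaks sat close to the start sites. All 18 CS peaks and all 36 beige peaks overlapped both an ATAC and an H3K27ac peak of Flox, against 94.5% and 93.9% of the CS promoter peaks of all genes and 97.5% and 94.4% of the beige ones. All 38 promoters had both kinds of peak in Flox, against 67.7% and 63.9% of all genes, so this overlap was largely given beforehand. Summits lay within 100 bp of a TSS in 13 of 18 genes in CS (72.2%) and 27 of 36 in beige cells (75%), against 47.1% and 55.5% over all genes. The CS summit of Glb1 fell on the start itself, at 0 bp, and the beige summit of Atp6v1d at 3 bp. The CS and RT summits of Atp6v1d were further out, at -162 and -208 bp, on the side of Eif2s1. Besides Atp6v1d and Atp6v1a, windows were shared by Npc2 and Isca2, Glb1 and Tmppe, Atp6v1b2 and Slc18a1, Ctsa and Neurl2, and Hexa and Tmem202, and a peak there cannot be given to 1 gene.

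**Figure D3:**
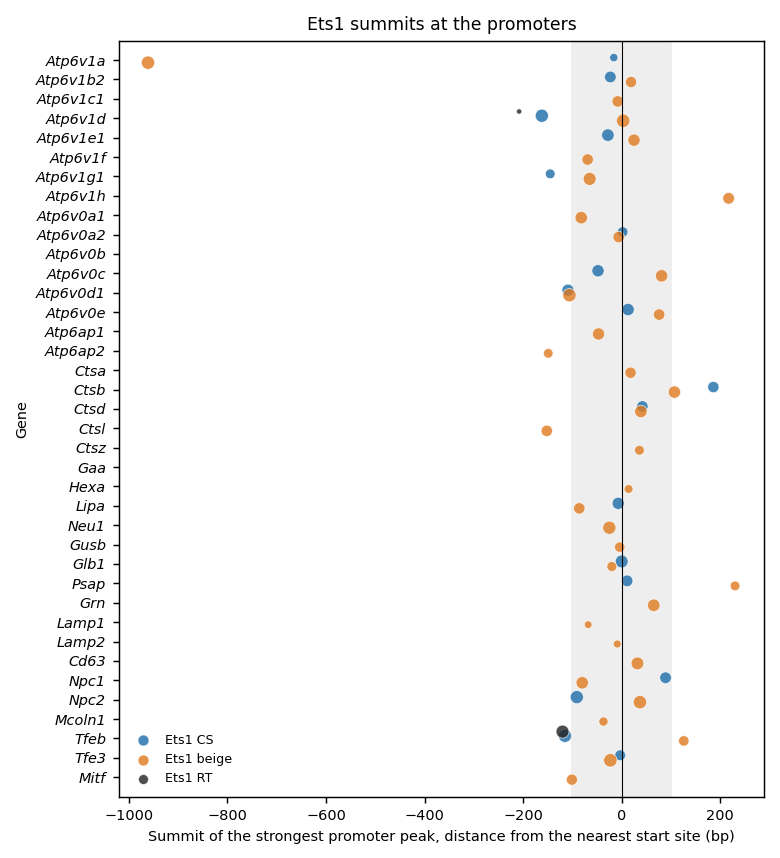
Distance in bp from the nearest TSS (horizontal axis, with 100 bp on each side shaded) to the summit of the strongest Ets1 promoter peak of each gene (vertical axis) in RT, CS and beige cells, with larger points for higher ranks. Most points fall in the shaded band, 13 of 18 in CS and 27 of 36 in beige cells, and the beige summit of Atp6v1a stands apart at -961 bp.

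EA+/+ and EC+/+ were compared to see where raised Ets1 in adipocytes went with H3K27ac. An acetylated promoter was found for 32 of the 38 genes in EC+/+ and 30 in EA+/+, where the shares of all genes were 52% and 50.4% and those of genes with a Flox ATAC promoter peak 73.7% and 71.1%. In 27 it was in both. Atp6ap1, Ctsa, Ctsl, Gaa and Mitf had it in EC+/+ alone (5 genes, against 8.89% of all genes) and Atp6v1f, Atp6v0a1 and Lamp1 in EA+/+ alone (3 genes, against 7.33%). The peaks found in 1 list alone ran from 2.96 at Gaa to 9.85 at Ctsl (rank 91.9), the latter a cysteine protease, in EC+/+, and from 2.54 at Lamp1 to 4.28 at Atp6v1f in EA+/+. Grn, Lamp2 and Mcoln1 had none in either.

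The strongest promoter peaks of EC+/+ stood at Glb1 (−log10 q 22.6), Atp6v1b2 (14.3), Ctsb (12.6), Lipa (11.4) and Atp6v1c1 (10.1). In EA+/+ they stood at Ctsb (14.0), Psap (13.9), Glb1 (13.9), Atp6v1c1 (8.61) and Atp6v1h (8.20). Ctsb encodes cathepsin B and Lipa the acid lipase. Between these lists 4 genes ranked over 20 points higher in EA+/+ (14.9% of all genes) and 6 over 20 points lower (17.8%). The higher were Npc1, the cholesterol exporter, by 54.3 points (rank 32.7 in EC+/+ and 87.0 in EA+/+), Gusb, the beta-glucuronidase, by 45.5, Atp6v0e by 44.0 and Atp6v0a2 by 24.4, and Atp6v1a followed at 16.6, with its EC+/+ and EA+/+ peaks at different sites. The 6 lower genes were Atp6v0c, Atp6v1e1, Atp6ap2, Tfe3, Ctsd and Atp6v0b. Atp6v1e1 ranked 60.3 in EC+/+ and 27.5 in EA+/+, Atp6ap2, also known as the prorenin receptor, 58.5 and 28.9, Tfe3 48.9 and 20.4, and Ctsd, the aspartic protease cathepsin D, 83.5 and 61.3. The median shift was 1.61 points for the 27 genes, or -0.21 when peaks were ranked by fold enrichment, so its direction depended on the ranking. It was -0.50 for all genes and -3.58 for 52 other lysosomal genes. It was -3.51 for 3 macrophage markers and -30.5 for 3 endothelial ones, but 13.5 for 5 adipocyte markers and 1.54 for 3 progenitor ones. The part of those cells was not tested.

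Atp6v0c, the proteolipid that builds the proton-carrying ring, differed in site as well as in rank. Its EC+/+ peak (chr17:24169486-24169846, rank 77.7) was met by no EA+/+ peak, and the EA+/+ peak (chr17:24168813-24169072, rank 4.71) lay within the gene. In Flox and EAKO a single broad H3K27ac peak spanned both places and was the strongest of all 38 promoters, at −log10 q 168 and 147.

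Flox and EAKO were compared to see what went with loss of Ets1 from adipocytes. H3K27ac marked all 38 promoters in Flox and 37 in EAKO, against 63.9% and 60.5% of all genes. The exception was Atp6v0b, a proteolipid of the V0 ring, with a peak in Flox alone at −log10 q 8.14 (rank 63.0): 1 gene, against 5.18% of all genes, while 0 had one in EAKO alone, against 1.75%. No gene shifted by over 20 points in either direction, against 1.93% of all genes higher and 8.51% lower in EAKO. The 5 that ranked higher by most were Grn, the progranulin gene, by 13.4 points, Ctsl by 6.59, Cd63 by 4.59, Ctsz by 3.70 and Atp6ap1 by 3.10. On the lower side, the ranks in Flox and EAKO were 89.2 and 75.7 at Lamp2, 79.2 and 66.0 at Gaa, 83.0 and 69.9 at Atp6v0a1, 91.3 and 80.8 at Mitf, and 99.6 and 91.5 at Atp6v1h. Besides Atp6v0c the highest in Flox were Atp6v1h at 109, Ctsb at 96.2, Atp6v0d1 at 91.4 and Hexa, which encodes a beta-hexosaminidase subunit, at 84.4. In EAKO they were Lipa at 71.3, Ctsb at 71.0, Atp6v1d at 65.8 and Hexa at 60.6. The median shift was -0.74 points, against -1.19 for all genes. The 3 macrophage markers with a peak in both lists ranked lower in EAKO, by a median of -22.9. The median was 2.25 for 6 endothelial markers, 2.24 for 8 progenitor ones and 1.955 for 7 adipocyte ones. The part of these cells in the lysosomal ranks was not tested.

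ATAC gave a promoter peak for all 38 genes in both lists, against 67.7% of all genes in Flox and 66% in EAKO, so 0 genes were open in 1 list alone (2.54% of all genes in Flox alone and 0.784% in EAKO alone). The strongest in Flox were Atp6v1d at −log10 q 177, Atp6v0d1 at 172, Ctsb at 167, and Lipa and Ctsl at 162. In EAKO they were Atp6v1d at 136, Atp6v1e1 and Neu1 at 128, Atp6v0d1 at 126 and Lipa at 125. In rank, 13 genes were higher and 25 lower in EAKO. Of all 14301 genes with a peak in both lists, 5294 were higher and 9006 lower, a similar tilt. The median shift was -2.45 points against -1.20 for all genes. The median was -4.06 for 4 macrophage markers, -10.8 for 5 endothelial, -2.59 for 7 adipocyte and 0.47 for 7 progenitor ones. The part of these cells was not tested. None of the 38 genes was higher by over 20 points (0.559% of all genes), and 2 were lower by as much (7.45%).

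Those 2 genes were Atp6v0b and Atp6v1c1. Atp6v0b (chr4:117884326-117887333) had −log10 q 40.6 (rank 71.9) in Flox and 5.64 (rank 15.9) in EAKO. It is also the gene without an H3K27ac promoter peak in EAKO, and it had no Ets1 promoter peak in any list. Atp6v1c1 (chr15:38661933-38692446), a regulatory subunit that joins V1 to V0, had 103 (rank 92.3) and 12.9 (rank 43.2). Its H3K27ac rank was 97.3 and 91.6, and its Ets1 peak was in beige cells alone, at 10.7. A strong distal site in its flank, 34530 bp from the nearest TSS of Atp6v1c1 itself, had an ATAC rank of 98.0 in Flox and 99.2 in EAKO. Hexa, Ctsz and Atp6v1b2 were lower by less, with ranks of 90.0 and 73.0, 85.9 and 69.0, and 88.6 and 74.4. Those higher by most were Atp6v1a by 5.49 points, Cd63 by 3.56, Npc1 by 1.84, Atp6v0e by 1.52 and Ctsa by 1.47.

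**Figure D4:**
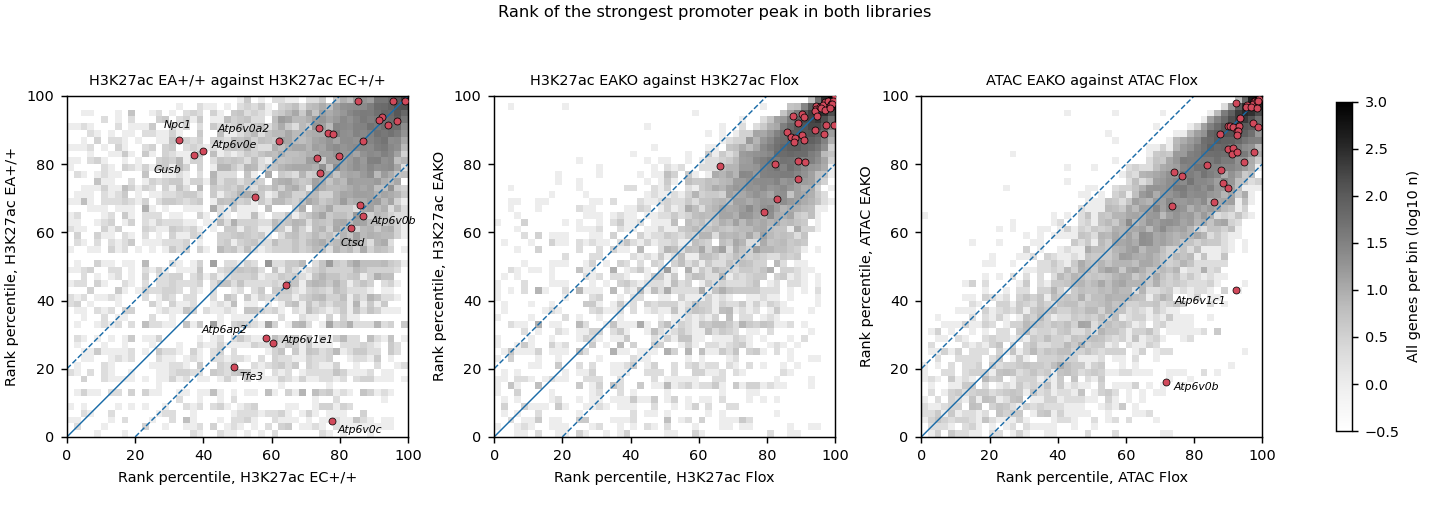
Rank percentile of the strongest promoter peak in the first library (horizontal axis) and the second (vertical axis) of the knock-in and knock-out comparisons, for the 38 genes (red) and all genes with a peak in both (grey, log10 of the number per bin). Dashed lines mark 20 points from the diagonal. In ATAC only Atp6v1c1 and Atp6v0b lie outside the lines, in H3K27ac of EAKO and Flox none does, and in EA+/+ and EC+/+ 10 do.

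The knock-out values were also divided by the Ets1 peak in CS. The median ATAC shift was -2.14 points for the 18 with it and -2.45 for the 20 without, and over all genes -0.83 and -1.96. For H3K27ac the medians were 0.23 for the 18 and -1.34 for the 19 without, against -0.90 and -1.69 over all genes. Divided by the beige Ets1 peak, the median ATAC shift was -2.00 points for 36 genes with it and -32.7 for the 2 without. Over all genes these medians were -0.78 and -3.95. The 2 genes were Atp6v0b at -55.9 and Gaa at -9.44, so their median rests largely on 1 gene. In H3K27ac the medians were -0.67 for 36 genes and -13.1 for Gaa alone, against -0.92 and -2.98 over all genes.

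The gene regions, promoters included, held between 4 peaks (Ets1 in RT) and 243 peaks (H3K27ac in Flox). Single peaks, which overlapped no peak of the other list by even 1 bp, are given with the same share over the regions of all genes. In the Ets1 lists, 1 of 4 RT peaks had no partner in CS (all genes 49.5%) and 35 of 38 CS peaks none in RT (89.3%). Against each other, 14 of 38 CS peaks and 96 of 121 beige peaks were single (47.6% and 75.3%). For H3K27ac, 65 of 130 peaks were single in EC+/+ (53%), 68 of 130 in EA+/+ (58%), 70 of 243 in Flox (34.2%) and 48 of 218 in EAKO (25.2%). For ATAC, 27 of 234 were single in Flox (15.7%) and 14 of 225 in EAKO (8.96%). Of the Ets1 peaks, 9 of 38 in CS (23.7%) and 49 of 121 in beige cells (40.5%) overlapped no promoter, against 41.7% and 55.9% over all genes.

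A few distal sites recurred. The strongest distal Ets1 peak in beige cells lay -6246 bp from a TSS of Atp6v0a1 (chr11:101003039-101003363), the subunit that carries the proton path, at −log10 q 104 (rank 98.8), while its promoter peak was at 19.1. The same site had an H3K27ac peak in Flox (33.4), which an EAKO H3K27ac peak overlapped, and ATAC peaks in Flox and EAKO (130 and 93.5). The site in the flank of Atp6v1c1 carried Ets1 in beige cells (30.3), H3K27ac in EC+/+, Flox and EAKO (9.01, 55.7 and 45.5) and ATAC. A site inside Ctsb, about -3065 bp from a TSS, carried Ets1 in beige cells (33.2), H3K27ac in Flox and EAKO (49.6 and 36.5) and ATAC (98.0 and 85.0). Further distal Ets1 peaks of beige cells stood at Mitf (25.4, at 13742 bp) and Lamp2 (22.0, at -17346 bp). In CS the strongest distal peak was 4.60, in the flank of Atp6v0c, at a place that also bore H3K27ac in EA+/+, Flox and EAKO. An EC+/+ peak overlapped the EA+/+ peak there.

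The regulators differed in which start sites were marked. Tfeb (chromosome 17, plus strand) has 4 start sites in its first 1873 bp, and its Ets1, ATAC and strongest Flox H3K27ac promoter peaks stood there, the Flox ATAC peak at −log10 q 65.4 (rank 83.8) and the EAKO one at 41.0 (79.8). Further down the gene the promoter peaks of the other lists except EC+/+ were weaker, among them an Ets1 peak of 1.71 in CS near the start at 32208 bp, and H3K27ac peaks in Flox of 9.37 or less. In EC+/+ the strongest Tfeb promoter peak, 5.35, was the one near the start at 45845 bp (rank 73.5), with one of 5.33 (73.3) at the first starts. An intragenic Ets1 peak of CS (3.52) stood at -5288 bp from the nearest TSS of Tfeb. All H3K27ac lists had a peak there, at 10.7 in EAKO, 7.30 in Flox, 6.19 in EA+/+ and 4.09 in EC+/+.

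Tfe3 (chromosome X) carried its Ets1 peak at the cluster of starts in its first 207 bp in both CS and beige cells, and a second beige peak of 16.2 near the starts from 1383 bp on. Mitf has widely spaced starts, and as background the most downstream promoter serves pigment cells. Promoter peaks stood at the 2 starts at 0 and 6 bp, with ranks of 63.3 for Ets1 in beige cells, 87.1 for H3K27ac in EC+/+, 91.3 and 80.8 in Flox and EAKO, and 93.1 and 91.2 for ATAC in Flox and EAKO. The start at 122747 bp had a peak of 3.24 in EC+/+ alone, and those at 133866 bp and from 184740 bp on had none in any list. Across its region Mitf held many distal peaks, 21 in ATAC of Flox and 8 for Ets1 in beige cells.

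**Figure D5:**
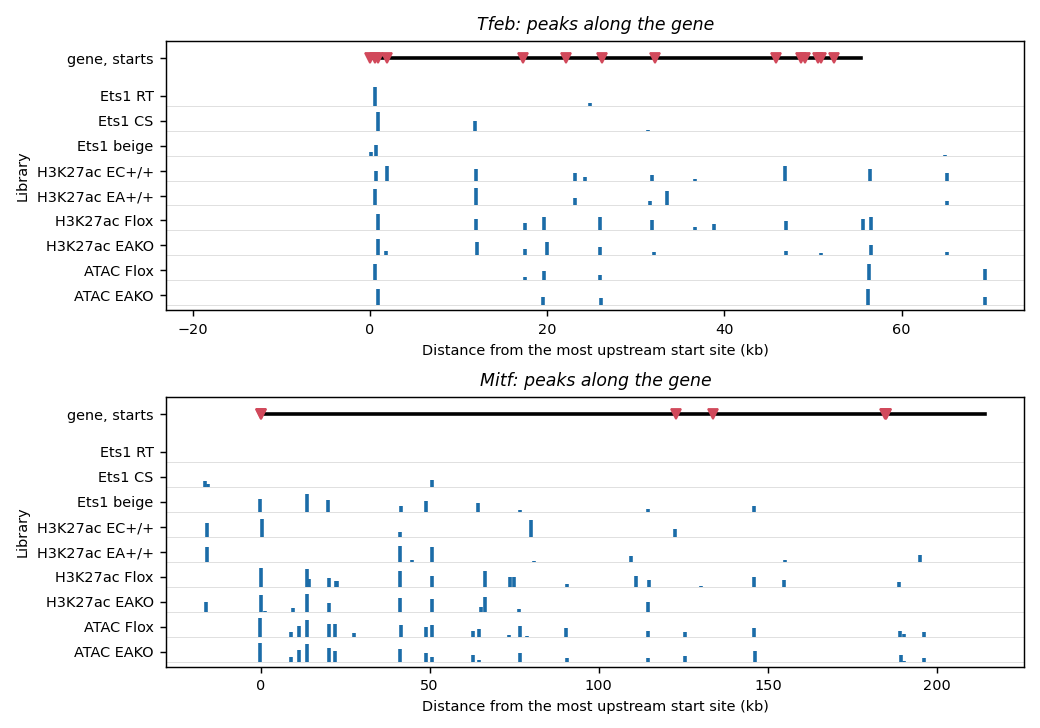
Peaks of the 9 libraries (rows, bar height is the rank percentile within the library) along Tfeb and Mitf, by distance in kb from the most upstream TSS (horizontal axis), with start sites as red triangles. Tfeb has Ets1 in RT, CS and beige cells at its first starts, and Mitf has promoter peaks at its first starts and none at the starts from 184740 bp on.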

How the data were processed

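The authors trimmed reads, aligned them with BWA to mm10 and called peaks per library with MACS2 at q under 0.05. SAMtools, deepTools and DESeq2 are named in the submitters' processing notes. Any MACS2 control was not given in the sources used here. Each deposited peak carries a score, a fold enrichment (ratio), a −log10 p-value, a −log10 q-value and a summit offset in bp. The deposited −log10 q depends on depth and background, so lists were compared by rank within each list, and −log10 q values of different lists stand side by side as descriptions only. Promoters were 1 kb on each side of the 93513 start sites (TSS) that GENCODE M21, on the same build, gives to 21938 protein-coding genes. No peak ran past a chromosome end. A gene took the strongest peak it overlapped by at least 1 bp. A rank difference of over 20 points was counted.

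The genes and lists were chosen with earlier results of these data known. Genes were named by presence in 1 list, the 5 highest ranks and the 5 largest shifts per direction, and the start sites of the regulators. The split by Ets1 peak, the sequences printed and the distal sites described were chosen after values were seen. Alternatives changed the window, flank, q threshold, overlap, transcripts, list size, ranking and motif. Counting was tested on simulated peaks. Python 3.11.15, NumPy 2.4.6, SciPy 1.17.1 and pysam 0.24.0 were used.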

Additional observations from a re-analysis of the deposited data

How the results depend on the processing

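Of 154 values recomputed, 117 stayed within 1.5 times the reported count or 5 rank points, 36 moved further and 1 changed sign. No paired analysis was possible because each group has 1 library, and no replicate could be left out. The 2 RT promoter peaks became 1 at q under 0.001, and the 16 CS promoters against RT became 7 with equal numbers of best peaks. Over all 21938 genes, the 6381 with a peak in CS alone became 2802 with the same equal numbers. With such equal lists CS gained 2 promoters of its own against beige cells, where 1644 of all genes had a peak in CS alone. At q under 0.001, 8 promoters were acetylated in EC+/+ alone. With a 3 kb window, 0 were acetylated in Flox alone. No share over all genes stands beside these 2 counts, so they describe the settings only. Ranking by fold enrichment gave a median shift of 38.2 points from RT to CS in place of 44.9, both over 2 genes, and -0.21 from EC+/+ to EA+/+, the value that changed sign. CCGGAAGT lay in 2 promoters and CACGTG in 11.

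Single region peaks changed with the region and the other settings. The counts that follow have no share over all genes beside them, so they describe the settings and not the genes. In the gene body alone there were 22 in CS against RT, 6 in CS and 50 in beige cells against each other, 28 and 31 for EC+/+ and EA+/+, 30 and 28 for H3K27ac of Flox and EAKO, and 11 and 5 for ATAC. With 50 kb they were 2 in RT and 70 in CS, 30 in CS and 172 in beige cells, 123 and 115 in EC+/+ and EA+/+, 120 and 77 in Flox and EAKO, and 49 and 25 for ATAC. At q under 0.001 they were 0 in RT, 23 in CS against RT, 3 in CS against beige, 43 in EC+/+ and 33 in EA+/+. Requiring an overlap of 50% of either peak gave 2 in RT. Equal lists gave 8 in CS against RT, 47 in beige cells and 16 for ATAC in Flox. Read totals were not used here, and how far depth set these counts was not tested.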
